A study of Mus musculus with 2 samples.

Results

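The 14-3-3 protein genes Ywhab, Ywhae, Ywhag, Ywhah, Ywhaq, Ywhaz and Sfn were examined for R-loop peaks in mouse neural stem/progenitor cells (NSPCs). The 7 genes were taken by symbol from the 22367 protein-coding genes of the GENCODE M1 annotation, which lists 37273 genes on NCBI37/mm9. Peaks were assigned to a gene when they overlapped it or lay within 2 kb of it, and 18 of the 22132 peaks in the DRIP-seq peak list met this rule. Every 14-3-3 gene overlapped at least 1 R-loop peak, against 39.6% of all protein-coding genes. A peak crossed the transcription start site (TSS, the annotated 5′ limit of the gene) in 6 of the 7, against 14.9% of all protein-coding genes. Ywhag was the exception: its peaks were in the distal part of the gene body and beyond its transcription end site (TES), and its TSS lay 5084 bp from the nearest peak.

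The cells were primary NSPCs from frontal brains of C57BL/6 mice at postnatal day 7, kept in culture. The sample labels name no treatment, and by the study's methods the cells had been exposed to aphidicolin, a DNA polymerase inhibitor that causes mild replication stress. In DRIP-seq, DNA is cut with restriction enzymes and RNA:DNA hybrids are recovered with the S9.6 antibody before sequencing, so the sizes of the DNA fragments limit how finely a hybrid can be placed. An input library without antibody was also labelled, and no processed values of it were used here. The list gives the position of each peak only, so it has no strand, height or read count, the depth behind a peak is unknown, and no replicate error or test can be attached to the values. The level of transcription of these genes was not used here, and a peak does not measure it. Shares over protein-coding genes therefore include silent genes, while the study reports that few genes with peaks were transcriptionally inactive. The study itself displayed the Ywhaz promoter as a reference region for the assay, so a peak there was known beforehand.

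The 14-3-3 proteins are small acidic adaptors that form homo- and heterodimers and bind phosphorylated serine and threonine motifs in many partner proteins, which can shield a site, hold a partner in the cytoplasm or change its activity. Separate genes encode the isoforms: beta (Ywhab), epsilon (Ywhae), gamma (Ywhag), eta (Ywhah), theta, also called tau (Ywhaq), zeta (Ywhaz) and sigma (Sfn). All but sigma are abundant in brain, while sigma is best known from epithelial cells, where it is a target of p53 and holds cells at the G2 checkpoint. R-loops form where nascent RNA pairs with the template strand, and clusters of G on the coding strand are known to favour them.

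The stretches richest in G near the gene starts are printed first, since G on the coding strand is the feature most often linked to R-loops. Each line is the 60-bp window outside annotated exons in which G exceeds C the most, read 5′ to 3′ on the coding strand of mm9. Capitals mark runs of at least 3 G. The first 5 windows come from the peak over the TSS, the sixth from the peak that covers Sfn, and the last from the first 4 kb of Ywhag, which hold no peak.
Ywhab: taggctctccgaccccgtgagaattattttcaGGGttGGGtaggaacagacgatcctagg
Ywhae: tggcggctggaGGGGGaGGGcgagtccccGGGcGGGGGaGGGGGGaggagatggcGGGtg
Ywhah: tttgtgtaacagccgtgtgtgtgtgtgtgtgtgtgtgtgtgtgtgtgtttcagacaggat
Ywhaq: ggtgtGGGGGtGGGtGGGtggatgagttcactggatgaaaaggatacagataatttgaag
Ywhaz: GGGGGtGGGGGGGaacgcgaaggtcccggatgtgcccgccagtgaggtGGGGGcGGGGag
Sfn: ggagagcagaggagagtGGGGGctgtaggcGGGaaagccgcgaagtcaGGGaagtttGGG
Ywhag: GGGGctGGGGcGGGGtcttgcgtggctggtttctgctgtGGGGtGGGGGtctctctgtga

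The Ywhae window lies at chr11:75546853-75546912 on the plus strand, in intron 1, and holds 39 G against 9 C. The Ywhaz window, at chr15:36723661-36723720 on the minus strand and also in intron 1, holds 35 G against 11 C. The Ywhaq window, at chr12:21422179-21422238 on the minus strand, lies in intron 2 and holds 26 G against 3 C. These 3 genes carried G clusters downstream of a TSS that was inside a peak. The Ywhab window, at chr2:163820498-163820557 on the plus strand and upstream of the TSS, had 18 G against 13 C. The Ywhab start peak is only 770 bp wide, with 406 bp of it in exon 1, against 4 kb searched in Ywhag. The windows are thus maxima over unequal lengths. The Ywhah window, at chr5:33360311-33360370 on the plus strand, was a GT repeat upstream of the TSS with 23 G, 5 C and no G-run. The Sfn window, at chr4:133156169-133156228 on the minus strand, lay past the gene end and had 31 G against 7 C. The Ywhag window, at chr5:136409931-136409990 on the minus strand and 496 bp after the TSS, had 31 G against 10 C and 5 G-runs, although no peak covered it. Its excess of 21 G lay near the median of 22.0 for the richest windows of 14867 peaks over protein-coding genes of a single strand, whose quartiles were 16.0 and 28.0. The excesses in Ywhaq (23), Ywhaz (24), Sfn (24) and Ywhah (18) also lay between these quartiles, with Ywhae (30) above and Ywhab (5) below. A G cluster downstream of the TSS was therefore also found in the member without a start peak.

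A second set shows the 100 bp upstream of the TSS in the member with the most CpG there and in the pair with the fewest, with CG in capitals. CpG-rich promoters are the usual kind in broadly expressed genes.
Ywhag: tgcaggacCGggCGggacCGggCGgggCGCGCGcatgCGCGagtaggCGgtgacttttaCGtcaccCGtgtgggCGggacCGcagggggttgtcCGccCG
Ywhaz: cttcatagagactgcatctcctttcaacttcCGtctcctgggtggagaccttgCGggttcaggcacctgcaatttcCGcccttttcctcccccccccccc
Sfn: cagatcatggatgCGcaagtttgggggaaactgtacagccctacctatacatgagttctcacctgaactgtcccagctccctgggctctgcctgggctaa

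The Ywhag sequence, chr5:136410487-136410586 on the minus strand, held 16 CpG, more than the same window of 95.0% of protein-coding genes. The Ywhaz sequence, chr15:36724303-36724402 on the minus strand, held 3, and the Sfn sequence, chr4:133158084-133158183 on the minus strand, held 1. The median over protein-coding genes was 4, and 82.9% of them held at least 1. Among the other members, the counts were 6 in Ywhab, 10 in Ywhaq and 12 in both Ywhae and Ywhah. The member with the most CpG directly upstream was thus the one without a start peak, and both members with the fewest had their TSS inside a peak.

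**Figure D1:**
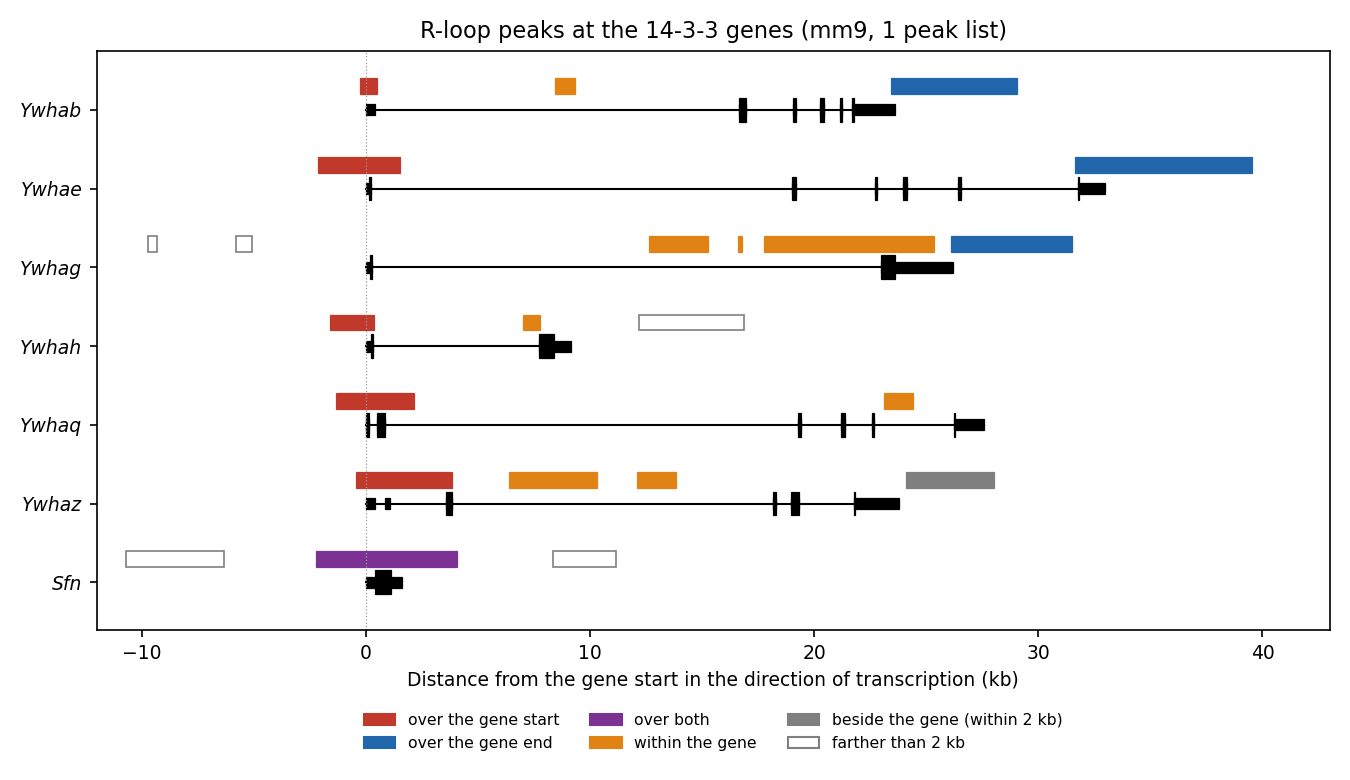
R-loop peaks drawn above each 14-3-3 gene against the distance from the TSS in kb, with every gene turned to run from left to right, exons as black boxes (coding parts taller) and peaks coloured by where they lie. Red or purple peaks cross the dotted TSS line in 6 genes, and in Ywhag the first peak inside the gene begins 12620 bp after the TSS.

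The 7 genes overlapped 17 peaks, and a single further peak lay beside Ywhaz. A peak within 2 kb was found at 43.1% of protein-coding genes. The 6 Ywha genes are 9.15 to 33.0 kb long, and among the 7100 protein-coding genes of that length, 44.0% overlapped a peak and 15.9% had the TSS inside one. The TES was inside a peak in 4 members, Ywhab, Ywhae, Ywhag and Sfn, against 10.9% of protein-coding genes. Both limits were inside peaks in Ywhab, Ywhae and Sfn, an arrangement that 4.28% of protein-coding genes had. In Sfn, which is 1.61 kb long, a single peak held both limits, and no share among genes that short was computed. A count chosen after the values were seen, that of genes with a peak in the 2 kb after the TES, added Ywhaz and came to 5 of 7, against 16.7%. At least 3 peaks overlapped Ywhab, Ywhag and Ywhaz, against 8.86% of protein-coding genes. As the members are few and were described with 1 peak list, these shares are set side by side and carry no test.

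The peaks at the 14-3-3 genes were wide. Their median width was 3.57 kb, with a range of 0.178 to 7.89 kb, against a median of 1.64 kb for the 17453 peaks within 2 kb of protein-coding genes. A width of 1 kb or more was reached by 77.8% of the member peaks and 66.3% of those at protein-coding genes. Together the 18 peaks spanned 62297 bp. Introns made up 36.7% of these bases and sequence downstream of the TES 37.9%, while 12.8% lay upstream of the TSS. Coding sequence accounted for 3.87%, 5′-UTRs for 2.92% and 3′-UTRs for 5.89%. Most of these bases thus lay outside exons. The share of exons in the genes and their flanks was not set beside this, so no preference for or against exons can be read from it.

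The share of a gene inside peaks differed widely between members. Sfn, the only member with a single exon and 1.61 kb long, was covered completely, as were 1.81% of protein-coding genes. Ywhag and Ywhaz followed, with 40.2% and 40.0% of their length inside peaks, a higher share than in 92.0% of protein-coding genes. The other 4 genes were covered less, with 12.9% in Ywhah, 12.6% in Ywhaq, 8.66% in Ywhae and 6.81% in Ywhab. The median of the members was 12.9%, against 10.4% for the 8858 protein-coding genes that overlapped a peak. With only peaks of at least 1 kb, cover was 0.791% in Ywhab and 4.23% in Ywhah.

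**Figure D2:**
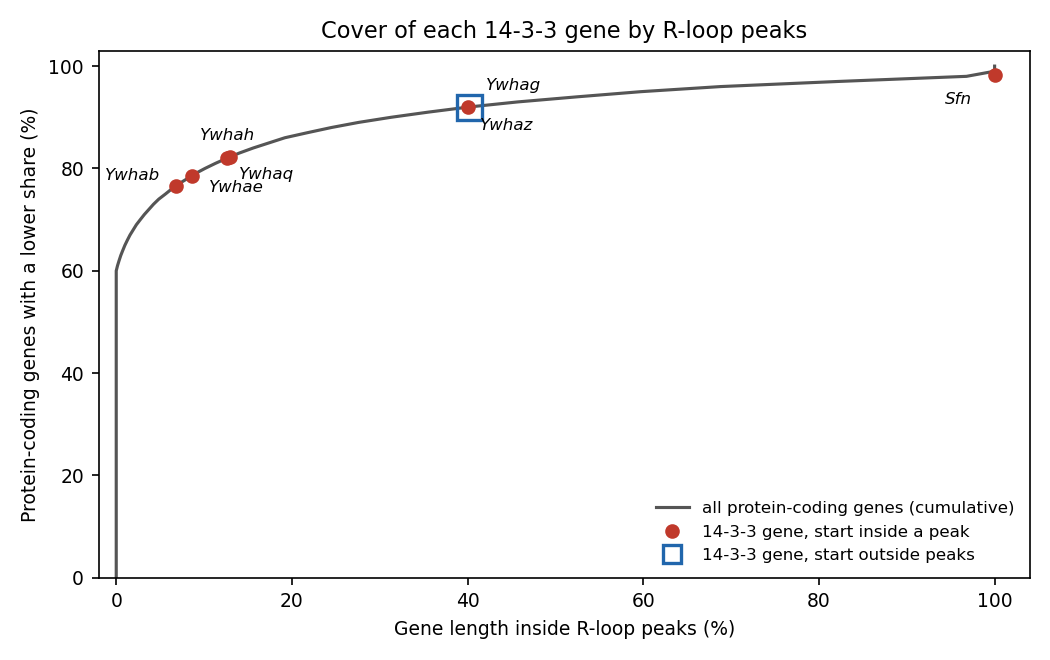
Share of each 14-3-3 gene inside R-loop peaks (x axis, percent of gene length) against the percent of protein-coding genes with a lower share (y axis), with the cumulative curve of all protein-coding genes in grey. Ywhag, the hollow square, lies at 40.2% although its TSS is outside peaks, next to Ywhaz at 40.0%, and Sfn lies at 100%.

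Peaks over both limits of the gene were found in Ywhae and Ywhab. Ywhae (ENSMUSG00000020849) encodes the epsilon isoform, which binds phosphorylated Ndel1 in migrating neurons, and lies at chr11:75546371-75579347 on the plus strand with 6 exons. Its start peak, chr11:75544249-75547890, was 3642 bp wide and reached from 2122 bp upstream of the TSS into intron 1, so that 58.3% of it was upstream. Its second peak, chr11:75578012-75585901, was 7890 bp wide, took in exon 6 with the 3′-UTR, and extended 6554 bp past the TES. That peak also covered 3434 bp of Doc2b, which encodes a calcium sensor of vesicle exocytosis and runs on the opposite strand, with its TES 3121 bp from that of Ywhae. As DRIP peaks carry no strand, the hybrid under this part of the peak cannot be assigned to either gene. The remaining 30.1 kb of Ywhae, most of intron 1 and exons 2 to 5, held no peak.

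Ywhab (ENSMUSG00000018326) encodes the beta isoform, a partner of Raf kinases, and lies at chr2:163820696-163844324 on the plus strand with 6 exons. Its start peak was the narrowest of the family, 770 bp at chr2:163820448-163821217, and spanned the noncoding exon 1 and the first bases of intron 1. An 899-bp peak lay within intron 1, at chr2:163829121-163830019. The third, chr2:163844138-163849749, was 5612 bp wide and had 187 bp in the 3′-UTR and 96.7% of its length past the TES. No peak lay over coding bases of Ywhab.

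Sfn (ENSMUSG00000047281), which encodes the sigma isoform, lies at chr4:133156471-133158083 on the minus strand. A single peak of 6271 bp, chr4:133154034-133160304, began 2221 bp upstream of the TSS and ended 2437 bp past the TES. The nearest peaks on either side overlapped Zdhhc18, which encodes a palmitoyltransferase, 6345 bp upstream of the Sfn TSS, and Gpn2, which encodes a GTPase, 6721 bp past its TES. The Sfn peak overlapped no other annotated gene.

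Peaks over the TSS and within the gene body, but not over the TES, were found in Ywhaz, Ywhaq and Ywhah. Ywhaz (ENSMUSG00000022285) encodes the zeta isoform, widely used as a reference transcript, and lies at chr15:36700525-36724302 on the minus strand with 7 exons. Its start peak, chr15:36720454-36724721, was 4268 bp wide, reached 419 bp upstream and 3848 bp downstream, and covered exons 1 and 2 and part of exon 3. It lay mostly inside the gene and included the first coding bases, which are in exon 3. Peaks of 3927 bp at chr15:36713978-36717904 and of 1740 bp at chr15:36710457-36712196 followed in intron 3. The fourth peak, chr15:36696298-36700187, was 3890 bp wide and began 338 bp past the TES, and so counted as beside the gene. Exons 4 to 7 of Ywhaz were free of peaks.

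Ywhaq (ENSMUSG00000076432), which encodes the theta isoform, lies at chr12:21395932-21423498 on the minus strand with 6 exons. Its start peak, chr12:21421328-21424831, was 3504 bp wide and covered exons 1 and 2, with 468 coding bases. It also covered 1060 bp of the lincRNA gene Gm4419, which starts 274 bp away and is transcribed from the other strand, so the upstream part of the peak lay over a divergent transcript. The only other peak was 1289 bp wide, at chr12:21399087-21400375 in intron 5. The TES of Ywhaq lay 3155 bp from the nearest peak.

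Ywhah (ENSMUSG00000018965), which encodes the eta isoform, lies at chr5:33361465-33370615 on the plus strand and has 2 exons. Its start peak, chr5:33359857-33361851, was 1995 bp wide and had 80.6% of its length upstream of the TSS, the highest share among the start peaks. A peak of 795 bp, chr5:33368461-33369255, lay in intron 1 and ended 65 bp into the coding part of exon 2. Past the gene, the next peak was 4696 bp wide and began 3032 bp after the TES, outside the 2-kb limit.

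Ywhag (ENSMUSG00000051391) encodes the gamma isoform, which is enriched in brain, and lies at chr5:136384279-136410486 on the minus strand with 2 exons. No peak covered exon 1 or the first 12620 bp of the gene. Within the distal part of intron 1, 2 peaks followed, of 2651 bp at chr5:136395216-136397866 and of 178 bp at chr5:136393700-136393877. The third, chr5:136385118-136392729, was 7612 bp wide and covered all 654 coding bases of exon 2 and 1750 bp of the 3′-UTR. The fourth, chr5:136379003-136384366, was 5364 bp wide and had 98.4% of its length past the TES. Gaps of only 1338, 970 and 751 bp separated these 4 peaks, so that peaks took up most of Ywhag from 12620 bp after the TSS to the TES and continued for 5276 bp beyond it. Upstream, the nearest peaks were 702 bp and 397 bp wide and lay 5084 bp and 9305 bp before the TSS, outside annotated genes.

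The start peaks extended to both sides of the TSS, while the end peaks lay mostly beyond the gene. Among the 3325 protein-coding genes with the TSS in a peak, the median reach was 0.902 kb upstream and 1.47 kb downstream, and 64.6% reached farther downstream. Of the 5 start peaks at Ywha genes, those of Ywhab, Ywhaq and Ywhaz reached farther downstream and those of Ywhae and Ywhah farther upstream. At the TES, the 3 Ywha end peaks reached 5425 bp (Ywhab), 6554 bp (Ywhae) and 5276 bp (Ywhag) beyond the gene and 186, 1335 and 87 bp into it. The median over the 2447 protein-coding genes with the TES in a peak was 2.15 kb beyond and 2.63 kb inside, and 18.6% of them reached more than 5 kb beyond. Each of the 3 end peaks was thus among the long ones on the downstream side.

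By GC content and by observed over expected CpG near the TSS, Ywhag lay within the range of the other members. Within 500 bp of the TSS, its GC content was 61.4%, inside the range of the other members, which ran from 54.8% in Ywhaz and 56.3% in Sfn through 60.7% in Ywhab, 63.7% in Ywhae and 66.2% in Ywhaq to 71.1% in Ywhah. The median was 61.7% for protein-coding genes with the TSS in a peak and 53.2% for those with the TSS outside peaks. The ratio of observed to expected CpG in the same window was 0.764 in Ywhag. It was lower in Sfn (0.355), Ywhaz (0.628) and Ywhab (0.703) and higher in Ywhae (0.881), Ywhaq (0.906) and Ywhah (0.966). The median ratio was 0.775 for genes with the TSS in a peak and 0.463 for the others. By both measures Ywhag lay closer to the median of the genes with a start peak.

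**Figure D3:**
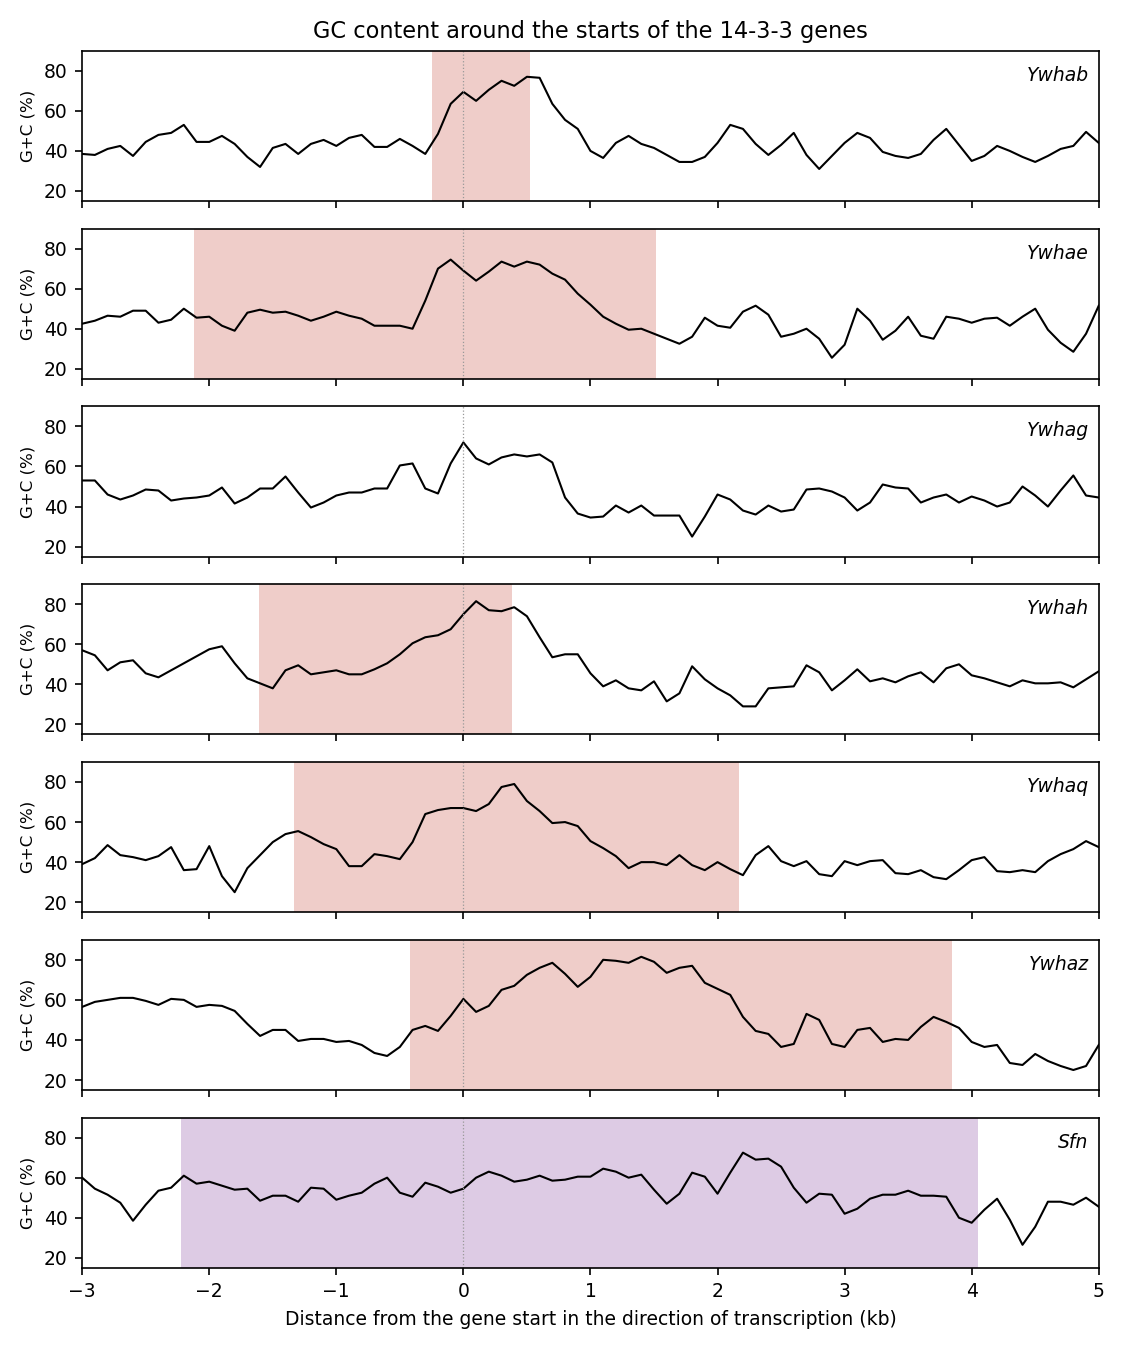
GC content in windows of 200 bp, moved in steps of 100 bp, from 3 kb before to 5 kb after the TSS of each 14-3-3 gene, with the peak over the TSS shaded. In Ywhag, which has no shading, GC rises to 72.0% at the TSS, and in Ywhaz the GC-rich block, up to 81.5%, lies inside the gene.

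GC skew, here (G - C)/(G + C) counted along the coding strand, varied between members even where the TSS was in a peak. Over the first 1 kb it was 0.226 in Ywhae, higher than in 97.0% of protein-coding genes, and 0.127 in Ywhaq. Values nearer to 0 were found in Ywhah (0.0602), Sfn (0.0268) and Ywhaz (0.0163). Skew was negative in Ywhab, at -0.125, and in Ywhag, at -0.106. The median was 0.0649 for protein-coding genes with the TSS in a peak and 0.0345 for the others. Ywhab and Ywhag thus both had more C than G on the coding strand after the TSS, and of the pair Ywhab alone had a start peak. Within the Ywhab start peak, skew was -0.241, with 14.3 G-runs per kb on the coding strand and 46.8 on the template strand. The Ywhah start peak also had more on the template strand, with 14.5 per kb on the coding strand against 18.5, and a skew of -0.0106. In the start peaks of Ywhae, Ywhaq and Ywhaz the coding strand had more, with 19.5 against 13.2, 20.0 against 12.3 and 26.9 against 20.4 per kb.

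Composition set the start peaks apart from the end and body peaks, while the values of the end peaks lay inside the range of the body peaks. The 5 start peaks had GC contents of 51.8 to 67.4% and CpG ratios of 0.623 to 0.754. The 3 end peaks had GC contents of 46.2 to 50.4% and CpG ratios of 0.185 to 0.274. The 8 peaks within gene bodies had GC contents of 40.4 to 50.9%, with a median of 43.5%, and CpG ratios of 0.135 to 0.371. No start peak overlapped a body or end peak in either measure. The Sfn peak, with 55.2% GC, was within the range of the start peaks by GC content, and its CpG ratio of 0.388 lay between the classes. Over the 15336 peaks at protein-coding genes of a single strand, the quartiles were 45.8 and 53.0% GC and 0.159 and 0.335 for the CpG ratio. Skew was above 0 in 13 of the 18 member peaks, against 66.2% of those peaks.

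**Figure D4:**
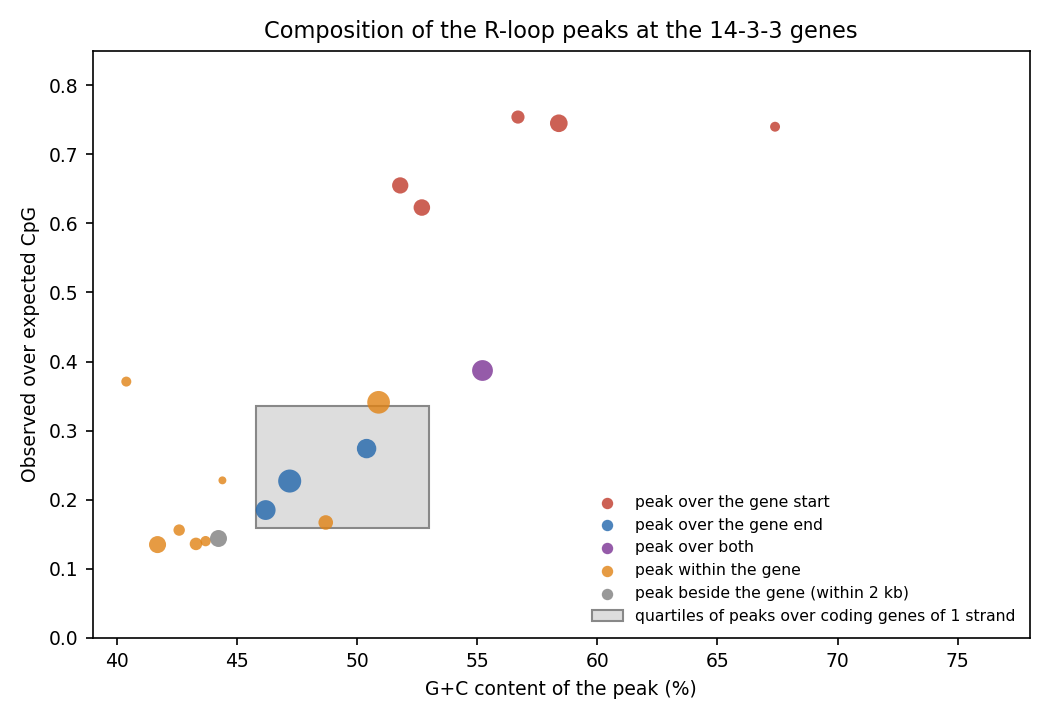
GC content (x axis, percent) against the ratio of observed to expected CpG (y axis) for the 18 peaks at the 14-3-3 genes, coloured by place in the gene and with the area growing with peak width, and a grey box for the quartiles of the peaks over protein-coding genes of a single strand. The 5 start peaks lie at or above a CpG ratio of 0.623, and the 3 end and 8 body peaks lie at or below 0.371.

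Past the TES, the windows richest in G at Ywhag and Ywhaz are printed because they had the largest excess of G among all member peaks. Capitals again mark runs of at least 3 G on the coding strand of mm9.
Ywhag: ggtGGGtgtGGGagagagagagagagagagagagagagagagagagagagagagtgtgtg
Ywhaz: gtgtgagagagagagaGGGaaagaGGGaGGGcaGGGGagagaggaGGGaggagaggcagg

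The Ywhag window, chr5:136381511-136381570 on the minus strand in the peak over the TES, held 33 G and 0 C, most of them in a GA repeat. The Ywhaz window, chr15:36697460-36697519 on the minus strand in the peak beside the gene, held 36 G and 2 C. Both lay past the annotated TES. Their excesses of 33 and 34 were above the upper quartile of 28.0 for such windows. As the windows were picked for the largest excess, this position follows from the choice. They are also maxima over peaks of 5364 and 3890 bp, while peaks within 2 kb of protein-coding genes had a median width of 1.64 kb.

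Peak edges were also set against the cut sites of the 5 restriction enzymes of the protocol, EcoRI, HindIII, BsrGI, SspI and XbaI. Of the 36 edges of member peaks, 14 lay within 100 bp of a site, or 38.9%, against 28.3% of all 44264 edges. Both edges did so in 4 peaks, the start peaks of Ywhae and Ywhaq, the 7612-bp peak of Ywhag and the 3927-bp peak of Ywhaz, against 9.90% of all peaks. The edges of the Ywhae start peak lay 28 bp from a HindIII site and 22 bp from a BsrGI site, and the fragment between the sites that flank the TSS is 3.63 kb long. The limits of these 4 peaks thus lay at cut sites to within 100 bp. Counting edge sites that fell inside, these peaks held 1 cut site in Ywhae, 2 in Ywhaq, 5 in Ywhag and 10 in Ywhaz. The site in Ywhae was the HindIII site at its edge, so this peak lay close to the single fragment of 3.63 kb. In Ywhaq, 1 of the 2 was likewise its edge HindIII site. Sites between the edges thus remained in Ywhaq, Ywhag and Ywhaz, so edges near sites do not make each peak a single restriction fragment. The fragment that holds the Ywhag TSS is 2.21 kb long, within the range of 1.71 kb in Ywhab to 4.00 kb in Sfn for the other members.

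Of the 35 genes listed as textbook binding partners of 14-3-3 proteins, 26 overlapped a peak, or 74.3%, against 39.6% of protein-coding genes. These genes are long, with a median of 58.3 kb against 15.4 kb for protein-coding genes, and 60.7% of the 4204 protein-coding genes at least that long overlapped a peak. Partners shorter than their median have no counterpart in that set, so the comparison is not matched for length. The TSS was inside a peak in 9 of the partner genes, or 25.7%, against 14.9% of protein-coding genes. The TES was likewise inside a peak in 9, against 10.9%. By bases inside peaks, the first 3 were Rptor, the mTORC1 scaffold, with 42.0 kb in 16 peaks, Foxo3, a transcription factor held in the cytoplasm by 14-3-3, with 25.4 kb in 10 peaks, and Hdac5, a class IIa histone deacetylase, with 24.5 kb in 5 peaks. Relative to length, peaks covered 68.6% of Hdac5, 26.8% of Foxo3 and 14.2% of Rptor. The longest partners without a peak were Braf, a kinase of the MAPK cascade, at 122 kb, Crtc1, a CREB coactivator, at 57.2 kb, and Th, the rate-limiting enzyme of dopamine synthesis, at 38.4 kb.

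For the cell type, the TSS of Nes, Sox2, Vim and Olig2 lay inside a peak, and Pax6, Fabp7 and Gfap overlapped none. The share with the TSS inside a peak was 57.1% of these 7 genes, against 14.9% of all protein-coding genes. The genes were listed as cell type markers. Such markers work by expression, which a peak does not measure, so the label could not be checked further from the list. A pseudogene of the family, Ywhaq-ps3, annotated as Gm11226, had 0 peaks within 2 kb.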

How the data were processed

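DRIP-seq and input libraries were labelled as primary NSPCs, and the DRIP peak list was used. The authors deposited peak positions in base pairs on mm9, with no count, signal or score. Per the labels and the study's methods, reads were trimmed with Trim Galore 0.6.6 (submitters' processing notes) and aligned to NCBI37/mm9, duplicates were removed, and a peak caller based on a Hidden Markov Model was run. The aligner and how replicates were combined are not given in the sources used here.

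Peaks were compared with GENCODE M1 (overlap of at least 1 bp, flank of 2 kb, longest record per symbol, as for Hdac4) and the mm9 sequence in Python 3.11.15 with numpy 2.4.6 and matplotlib 3.10.9. Named are all members, genes that share their peaks, the 3 binding partners with most bases covered and the 3 longest without a peak. Zdhhc18, Gpn2 and the printed windows were chosen after the values were seen. Members and lists were chosen with earlier results of these data known. The steps were checked on simulated intervals. Peaks of at least 1 kb, merged peaks, other overlaps, flanks and gene limits were tried as alternatives.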

Additional observations from a re-analysis of the deposited data

How the results depend on the processing

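Of 28 alternative settings for the counts over the family and its binding partners, 0 moved a count by more than 1.5 times. Counts of members cannot exceed 7, so few changes in them could pass that limit. All 7 genes overlapped a peak except where the midpoint of the peak had to lie inside the gene (6) or more than 50% of the peak (5). The shares of all protein-coding genes under these settings were 34.9% and 34.4%, against 39.6% as reported. With peaks of at least 1 kb, Ywhab lost its start peak and the TSS count fell from 6 to 5, and Ywhag had no start peak under any setting tried. At that limit of 1 kb, 13.5% of all protein-coding genes had the TSS inside a peak, against 14.9% as reported. With the end of any protein-coding transcript the TES count rose from 4 to 5, and the share of protein-coding genes from 10.9% to 13.7%. Cover depended most on narrow peaks in Ywhab and Ywhah, which came to 0.791% and 4.23% with peaks of at least 1 kb. Peaks per gene moved in 8 of 35 settings. No paired analysis was possible because the data are 1 peak list, in which the biological replicates the study describes are not separated. The depth of the libraries is unknown from the list, so a TSS without a peak is not shown to be without R-loops.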
